A study of Danio rerio with 36 samples.

Results

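The genes described here are ces2a (ENSDARG00000041569), ces3 (ENSDARG00000041595), cetp (ENSDARG00000030872) and si:dkey-105h12.2 (ENSDARG00000041685), 4 of the 25531 genes listed for both bisphenols. They were taken by their identifiers and had been chosen from values measured in these same libraries. Their own changes, intervals and calls are therefore given below as a description, and no conclusion is drawn from the calls. AB/Tub zebrafish larvae, a hybrid of laboratory strains, were exposed to bisphenol A (BPA), to its brominated derivative tetrabromobisphenol A (TBBPA), or to the carrier from 72 to 120 h postfertilization (hpf), and RNA was sequenced from pools of 20 whole larvae. Each chemical had its own carrier control (CC) and 5 concentrations in 10-fold steps, with 3 replicates of each. BPA was given at 0.00483, 0.0483, 0.483, 4.83 and 48.3 µM, and TBBPA at 0.000292, 0.00292, 0.0292, 0.292 and 2.92 µM. The highest concentration of each was its EC20, an effect concentration that the study took from earlier work. The methods name 0.5% DMSO as the carrier control, whereas the labels name the chemical in its place. Larvae of normal appearance were pooled, so effects in visibly affected larvae are outside these data.

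Carboxylesterases are serine hydrolases that cleave ester bonds in lipids, drugs and other foreign compounds, and in mammals the liver and the intestine are rich in them. Cholesteryl ester transfer protein, the product of cetp, circulates on lipoproteins and exchanges the cholesteryl esters of high-density particles for the triglycerides of particles that carry apolipoprotein B. Zebrafish have this gene, as humans do, while mice and rats lack it. The product of si:dkey-105h12.2 is annotated in the supplement of the study among extracellular peptidase inhibitors. The gene is called here by its clone name from that supplement. All 4 genes are placed by the same annotation in the turnover of plasma lipoproteins.

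The libraries held 6056692 to 16520859 reads in genes with BPA (median 7235877) and 7865327 to 11478099 with TBBPA (median 9029284). Values are normalized counts, the reads of a gene divided by the size factor of its library. The tables of the 2 chemicals were normalized separately, so a level in one was not set against a level in the other, and each change is relative to the CC of the same chemical. Levels of different genes were not compared either, because gene length was not taken into account. Replicate 3 at 4.83 µM BPA and replicate 2 at 0.000292 µM TBBPA stood apart from the other libraries, and results at the EC20 without them are given where they matter. Called genes, or DEGs (differentially expressed genes), are those whose level differed from the CC by 1.5-fold or more with an adjusted p below 0.05 in limma, a linear model fitted over all genes.

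All 4 genes were lower at the EC20 of BPA and all 4 were higher at the EC20 of TBBPA. The log2 fold changes ran from −2.42 to −1.07 at 48.3 µM BPA and from 0.66 to 1.19 at 2.92 µM TBBPA, and cetp was the lowest of the 4 with BPA while ces3 was the highest with TBBPA. With BPA 1 of the 4 was called, cetp, against 14% of the 17248 genes tested in either direction and 6.93% called lower. With TBBPA 1 of the 4 was called, si:dkey-105h12.2, against 0.859% of the 18400 genes tested and 0.658% called higher. Since the genes were chosen on these contrasts, nothing is read from these counts.

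The gene cetp, the lipid transfer gene, had the deepest change with BPA. Its normalized counts were 23.2, 28.1 and 32.2 in CC replicates 1, 2 and 3, and 8.02, 4.95 and 1.80 in the same replicates at 48.3 µM. Every exposed library lay below every control, as was the case for 17.4% of all genes tested. The control mean of 27.8 ± 4.52 compared with 4.92 ± 3.11 at 48.3 µM (SD, n = 3), a log2 fold change of −2.42 (SE 0.43, 95% interval −3.36 to −1.49). These are few reads. Replicates 1, 2 and 3 at the EC20 held 14, 4 and 2 reads of cetp, beside 24, 23 and 77 in their controls. The ratio of exposed to control was 0.346, 0.176 and 0.0560 in the 3 pairs of equal number, and the last of these, with 2 reads, had a 95% counting interval from 0.00666 to 0.209. Intervals of this kind cover counting error only. Because the count is low, the size of the change depended on the pseudocount, and with 10 in place of 1 it was −1.36.

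With TBBPA the same gene had the smallest change of the 4. Its normalized counts were 170, 116 and 77.0 in the CC and 174, 166 and 210 at 2.92 µM. Exposed replicate 2 lay below the highest control, so the groups overlapped. The mean went from 121 ± 46.7 to 184 ± 23.2 (SD, n = 3), a log2 fold change of 0.66 (SE 0.23, 95% interval 0.19 to 1.14), and cetp was not called. The pair ratios were 1.03, 1.44 and 2.73, and the counting interval of the first, 0.821 to 1.28, included 1. Without replicate 1 of the CC the change was 0.93, and cetp was then called. That was the 1 call among 17 alternative fits, described below, in which the change ran from 0.28 to 0.98.

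The carboxylesterase gene ces2a was spread widely at 48.3 µM BPA. Its normalized counts were 567, 638 and 607 in the CC and 654, 147 and 216 at the EC20. Exposed replicate 1 lay above all 3 controls while replicates 2 and 3 lay far below them, so the groups overlapped. The control mean was 604 ± 35.5 and the exposed mean 339 ± 275 (SD, n = 3), with a log2 fold change of −1.13 (SE 0.44, 95% interval −2.07 to −0.19), and ces2a was not called. Without replicate 1 at 48.3 µM the change was −1.95, and the gene was called. Over 17 alternative fits it was called in 3 and not in 14, with changes from −1.95 to −0.64. With TBBPA the counts were 2677, 1775 and 1231 in the CC and 3439, 2691 and 4075 at 2.92 µM. Every exposed library lay above every control, as it did for 10.5% of all genes tested. The mean went from 1894 ± 730 to 3402 ± 692 (SD, n = 3), a log2 fold change of 0.90 (SE 0.25, 95% interval 0.38 to 1.41), and the gene was not called.

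The gene ces3, which lies next to ces2a, was likewise highest in replicate 1 among the libraries at 48.3 µM BPA. Its normalized counts were 49.2, 37.8 and 73.5 in the BPA CC and 44.7, 13.6 and 10.8 at 48.3 µM. Replicate 1 lay within the range of the controls, and the others lay below it. The control mean was 53.5 ± 18.2 and the exposed mean 23.0 ± 18.8 (SD, n = 3), and the log2 fold change was −1.40 (SE 0.56, 95% interval −2.59 to −0.21). It was not called, and without replicate 1 at 48.3 µM it was called at −2.23. That was the 1 call among 17 alternative fits, in which the change ran from −2.23 to −0.54. With TBBPA the counts were 184, 220 and 135 in the CC and 426, 313 and 498 at 2.92 µM. All exposed libraries were above all controls, as for 10.5% of all genes tested. The mean went from 180 ± 42.6 to 412 ± 93.3 (SD, n = 3), a log2 fold change of 1.19 (SE 0.32, 95% interval 0.52 to 1.87). This was not called by limma, whereas edgeR called it at 1.20. With TBBPA ces3 was called in 6 of the 17 alternative fits. The genes ces2a and ces3 belong to 1 family, and reads could in part be shared between them or with ces2b.

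For si:dkey-105h12.2 the normalized counts were 56.0, 28.1 and 45.1 in the BPA CC and 38.9, 12.4 and 14.4 at 48.3 µM. Replicates 2 and 3 lay below all controls and replicate 1 lay within them. The mean went from 43.0 ± 14.1 to 21.9 ± 14.8 (SD, n = 3), a log2 fold change of −1.07 (SE 0.47, 95% interval −2.08 to −0.06), which was not called. Without replicate 1 at 48.3 µM it was called at −1.74. Over 17 alternative fits it was called in 2 and not in 15, with changes from −1.74 to −0.64. With TBBPA the counts were 227, 183 and 162 in the CC and 280, 332 and 435 at 2.92 µM. Every exposed library lay above every control, as for 10.5% of all genes tested, and the gene was called. The mean went from 191 ± 33.1 to 349 ± 78.9 (SD, n = 3), a log2 fold change of 0.86 (SE 0.17, 95% interval 0.50 to 1.22). The call was lost without CC replicate 2, CC replicate 3 or exposed replicate 3, at 0.87, 0.69 and 0.69.

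**Figure D1:**
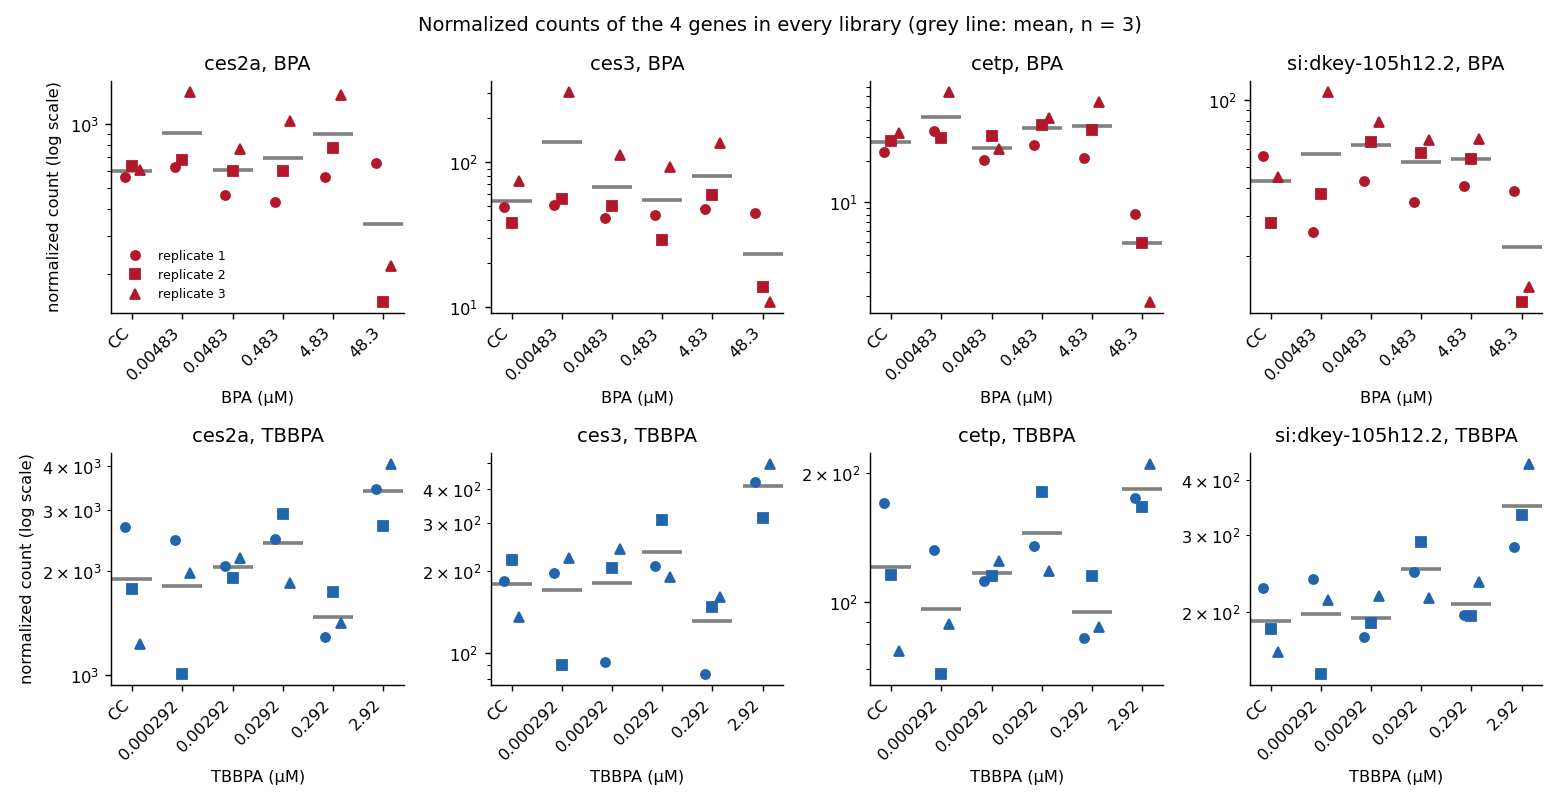
Normalized counts (log scale) of the 4 genes in all 36 libraries, by concentration in µM, with BPA in the upper row and TBBPA in the lower row; symbols mark replicates 1, 2 and 3 and grey lines the means of 3. At 48.3 µM BPA replicate 1 lies apart from replicates 2 and 3 for ces2a (654 against 147 and 216), and at 2.92 µM TBBPA all 3 libraries lie above the controls for ces2a, ces3 and si:dkey-105h12.2. The latter was so for 10.5% of all genes tested.

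The pairs of equal replicate number gave the same picture. With BPA the ratio of exposed to control was 1.15, 0.231 and 0.356 for ces2a, 0.908, 0.360 and 0.147 for ces3, and 0.696, 0.441 and 0.319 for si:dkey-105h12.2. With TBBPA it was 1.28, 1.52 and 3.31 for ces2a, 2.31, 1.42 and 3.68 for ces3, and 1.23, 1.81 and 2.68 for si:dkey-105h12.2. Replicate 1 thus had the ratio nearest to or above 1 for all 4 genes with BPA, and replicate 3 had the largest ratio for all 4 with TBBPA. The genes ces3, cetp and si:dkey-105h12.2 were lower in all 3 pairs with BPA and higher in all 3 with TBBPA, and ces2a was not because of its first BPA pair. Of the 17157 genes tested with both chemicals, 359 (2.09%) had this pattern in all pairs. A log2 fold change below 0 with BPA and above 0 with TBBPA was found for 2921 (17.0%). The concentrations of the 2 chemicals differ, so the difference between them was not tested.

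At the 4 lower concentrations of each chemical none of the 4 genes was called by limma, and 0% of all genes were called at each of them but 0.000292 µM TBBPA, where the share was 0.0272%. None of the 4 was called there by edgeR or DESeq2 either. At an unadjusted p under 0.05 there was 1 of the 4 at 0.0292 µM TBBPA, where 5.08% of all genes were, and 0 at each of the others. The log2 fold changes lay between 0.19 and 0.87 at 0.00483 µM BPA, −0.15 and 0.54 at 0.0483 µM, −0.08 and 0.30 at 0.483 µM, and 0.29 and 0.48 at 4.83 µM, with SE from 0.43 to 0.56. Across BPA, therefore, the sign seen at the EC20 was not seen for all 4 genes at any lower concentration. At 4.83 µM replicate 3, the library that stood apart, had the highest value of its group for each of the 4 genes. With TBBPA the changes lay between −0.30 and 0.04 at 0.000292 µM, −0.08 and 0.18 at 0.00292 µM, 0.31 and 0.39 at 0.0292 µM, and −0.48 and 0.14 at 0.292 µM, with SE from 0.17 to 0.32. All 4 were higher than the CC at 0.0292 µM, and 3 of the 4 were lower at 0.292 µM, so the levels did not climb step by step.

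**Figure D2:**
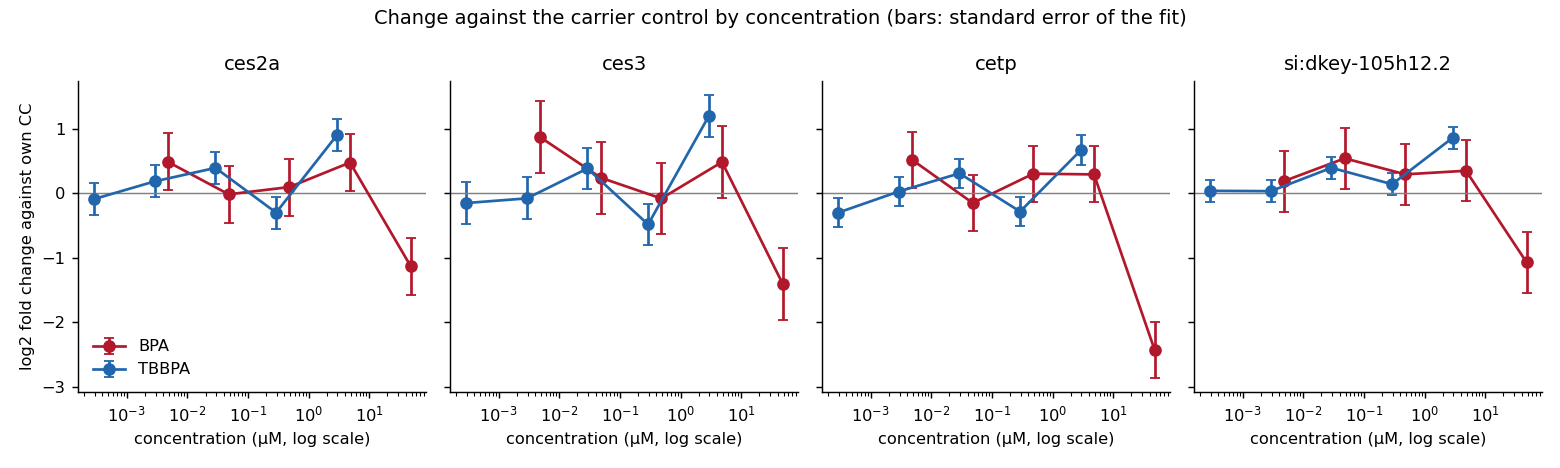
Log2 fold change of each gene against the CC of the same chemical by concentration (µM, log scale), with BPA in red and TBBPA in blue and bars for the standard error. The points at the lower concentrations lie between −0.48 and 0.87, and those at the EC20 lie between −2.42 and −1.07 with BPA and between 0.66 and 1.19 with TBBPA.

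Single libraries carried much of the spread at the lower BPA concentrations. For ces2a the counts were 629, 678 and 1413 at 0.00483 µM, 463, 601 and 762 at 0.0483 µM, 430, 602 and 1035 at 0.483 µM, and 566, 770 and 1357 at 4.83 µM. Replicate 3 was the highest in all 4 groups. The ces3 counts were 50.1, 55.5 and 305 at 0.00483 µM, 40.8, 49.6 and 112 at 0.0483 µM, 43.0, 28.9 and 92.2 at 0.483 µM, and 47.5, 59 and 135 at 4.83 µM. Replicate 3 was again the highest, and its value at 0.00483 µM was the highest of all 18 libraries.

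For cetp the BPA counts were 33.0, 29.3 and 65.2 at 0.00483 µM, 20.4, 30.4 and 24.3 at 0.0483 µM, 26.2, 36.7 and 41.6 at 0.483 µM, and 21.0, 34.1 and 54.3 at 4.83 µM. For si:dkey-105h12.2 they were 25.6, 37.7 and 109, then 43.4, 64.8 and 79.3, 34.6, 57.8 and 66.0, and 41.1, 54.2 and 66.8 in the same order of concentrations. Each of these groups overlapped with its CC for each gene. The lowest value of cetp among these 12 libraries and the controls was still above all 3 libraries at the EC20.

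The TBBPA libraries varied less. For ces2a the counts were 2451, 1007 and 1967 at 0.000292 µM, 2067, 1904 and 2180 at 0.00292 µM, 2471, 2908 and 1841 at 0.0292 µM, and 1284, 1731 and 1409 at 0.292 µM. Replicate 2 at 0.000292 µM, the library that stood apart, had the lowest value of the series for ces2a, cetp and si:dkey-105h12.2. The ces3 counts were 197, 90.2 and 224 at 0.000292 µM, 92.8, 206 and 242 at 0.00292 µM, 208, 308 and 190 at 0.0292 µM, and 83.6, 148 and 161 at 0.292 µM. The carboxylesterase genes thus reached their lowest group means at 0.292 µM, directly below the EC20.

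For cetp the TBBPA counts were 132, 68.2 and 89.2 at 0.000292 µM, 112, 115 and 124 at 0.00292 µM, 136, 180 and 118 at 0.0292 µM, and 82.9, 115 and 87.6 at 0.292 µM. For si:dkey-105h12.2 they were 237, 144 and 213, then 176, 188 and 218, 247, 289 and 215, and 197, 196 and 234 in the same order. All of these groups overlapped with the CC. The highest of 18 values was found at 2.92 µM, in replicate 3, for each of the 4 genes.

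The 4 genes varied together among the libraries. The values used to describe this come from the same libraries that gave the EC20 changes, and libraries of 1 group share their exposure. Over the 18 BPA libraries Pearson's r of log2(value + 1) lay between 0.78 (cetp and si:dkey-105h12.2) and 0.90 (ces2a and ces3), and over the 18 TBBPA libraries between 0.80 (ces3 and cetp) and 0.96 (ces2a and cetp). After the mean of each group was taken away, r lay between 0.70 and 0.85 with BPA and between 0.58 and 0.94 with TBBPA, so the genes also moved together within groups. Without the 3 EC20 libraries the lowest r was 0.52 with BPA and 0.67 with TBBPA. Spearman's rho over all 18 libraries lay between 0.62 and 0.82 with BPA and between 0.74 and 0.94 with TBBPA.

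The level of liver transcripts moved with the 4 genes. The list of liver markers held 22 genes, among them fabp10a (the liver fatty acid-binding protein), tfa (transferrin), ttr (transthyretin) and the fibrinogen chains. In the libraries of the CC and the EC20 of each chemical, 0 to 2 of the 22 were at 0. The marker hp (haptoglobin) was at 0 in 16 of the 18 BPA and 13 of the 18 TBBPA libraries, CPB2 and hpxa were each at 0 in 1 BPA library, and no other liver marker was at 0 in any library. Their summed normalized counts were 11726 to 13726 in the BPA CC, and 18463, 6132 and 7072 in replicates 1, 2 and 3 at 48.3 µM. The sum was therefore above the controls in the replicate where the 4 genes were highest, and below them in the other two. With TBBPA the sum was 34518, 25864 and 21343 in the CC and 42402, 32433 and 49964 at 2.92 µM. In pools of whole larvae, fewer cells of a type and less RNA per cell cannot be told apart.

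Over 18 libraries the mean log2 level of the tested liver markers (20 with BPA, 21 with TBBPA) gave Pearson's r with ces2a of 0.95 in each series. With ces3, cetp and si:dkey-105h12.2 it was 0.85, 0.70 and 0.80 with BPA and 0.89, 0.93 and 0.84 with TBBPA. Spearman's rho for the 4 genes in the same order was 0.93, 0.71, 0.66 and 0.66 with BPA and 0.93, 0.89, 0.95 and 0.81 with TBBPA. When the 2 libraries farthest from the median of the markers were left out, r was 0.89, 0.74, 0.54 and 0.62 with BPA and 0.91, 0.83, 0.90 and 0.70 with TBBPA. These correlations describe libraries that share groups, and no p is given for them.

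The mean log2 level of the liver markers itself was 7.30 ± 0.13 in the BPA CC and 6.66 ± 1.20 at 48.3 µM, and 8.67 ± 0.50 in the TBBPA CC and 9.19 ± 0.36 at 2.92 µM (SD, n = 3). Taken relative to that level, the log2 change at 48.3 µM BPA was −0.49 for ces2a, −0.77 for ces3, −1.79 for cetp and −0.43 for si:dkey-105h12.2. Relative to it at 2.92 µM TBBPA the changes were 0.37, 0.67, 0.14 and 0.34 in the same order. All 8 kept their sign, and all but that of cetp with BPA were at most 0.77 in size. The relative level had an SD (CC, then EC20, n = 3) with BPA of 0.06 and 0.09 for ces2a and 0.49 and 0.46 for ces3. For cetp it was 0.14 and 0.97, and for si:dkey-105h12.2 0.61 and 0.36. With TBBPA the SDs were 0.07 and 0.06, 0.38 and 0.06, 0.07 and 0.21, and 0.26 and 0.31 in the same order. The relative changes of si:dkey-105h12.2 with BPA and cetp with TBBPA were thus below the larger of their SDs. The part of the liver in these changes was not tested.

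**Figure D3:**
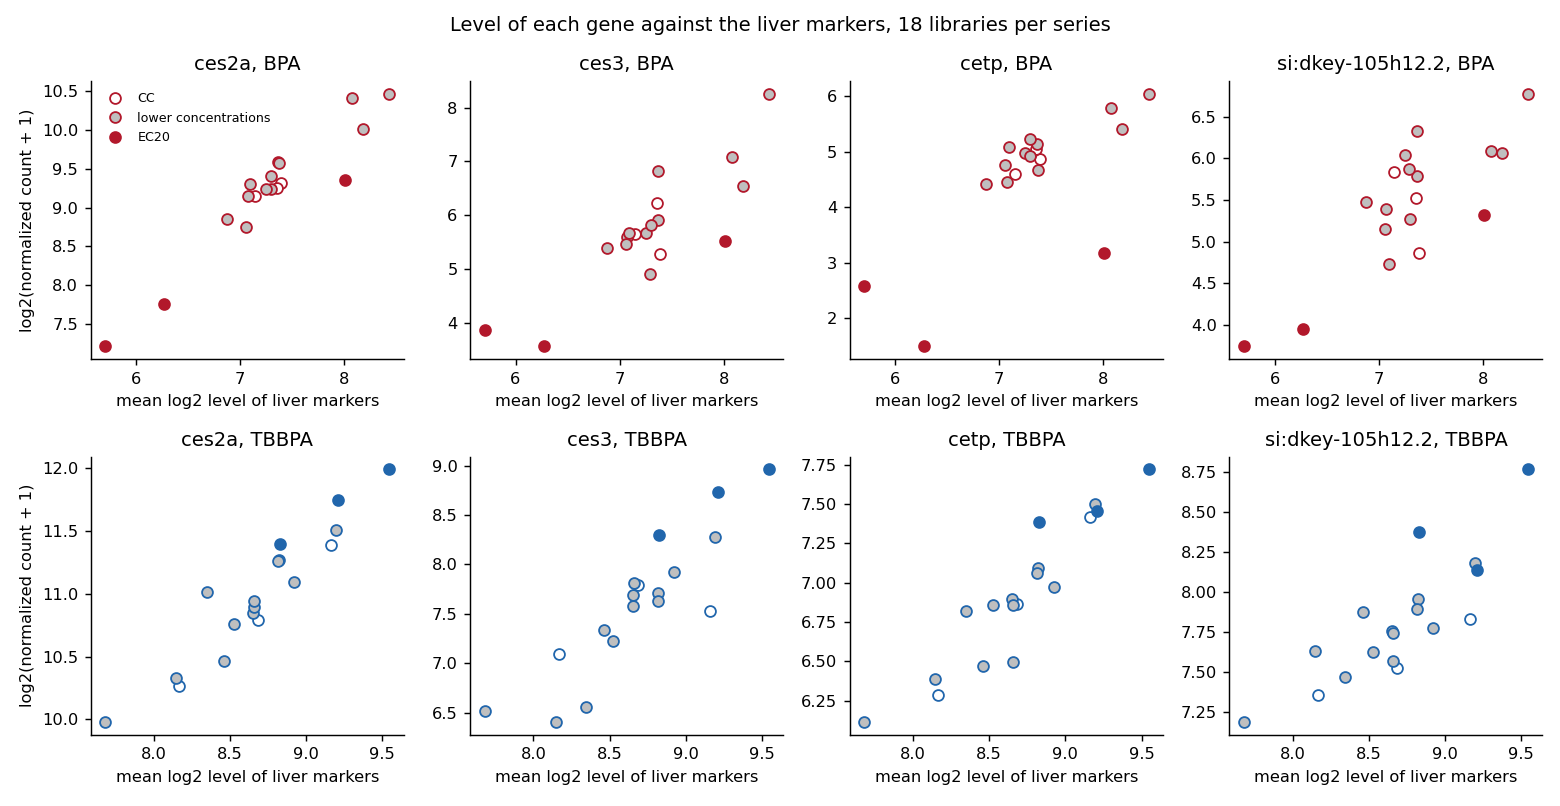
Level of each gene as log2(normalized count + 1) against the mean log2 level of the liver markers in the same library, with 18 BPA libraries above and 18 TBBPA libraries below; open points are the CC, grey points the lower concentrations and filled points the EC20. Pearson's r lies between 0.70 and 0.95, and the 3 EC20 points of cetp with BPA lie below the other libraries.

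Markers of other organs moved less evenly with the 4 genes. Of the 17 intestine markers, chia.3 was at 0 in 1 BPA library and the others in none, and their sum was 10665 to 19372 in the BPA CC and 3572 to 9781 at 48.3 µM. The mean log2 level of the tested intestine markers gave r between 0.60 and 0.86 with the 4 genes over the BPA libraries, and between −0.30 and −0.10 over the TBBPA libraries. For exocrine pancreas markers r lay between −0.00236 and 0.28 with BPA and between −0.22 and −0.09 with TBBPA. These values depended on few libraries. Without the 2 libraries farthest from the median of the markers, intestine r lay between 0.01 and 0.63 with BPA and between −0.16 and 0.20 with TBBPA. Exocrine pancreas r then lay between 0.12 and 0.29 with BPA and between 0.24 and 0.49 with TBBPA. Their part in the changes of the 4 genes was not tested.

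The genes whose values were most like those of the 4 genes over both series were looked up, by the lower of the 2 correlations among 17157 genes. For ces2a they were AGXT (ENSDARG00000018478; r = 0.96 with BPA and 0.95 with TBBPA), apom (0.95 and 0.96) and apoa1b (0.94 and 0.97). AGXT is alanine-glyoxylate aminotransferase, and apom and apoa1b are apolipoproteins of high-density particles. For ces3 they were slco1d1, an organic anion transporter gene (0.90 and 0.91), apom (0.89 and 0.88) and serpina1, a plasma protease inhibitor gene (0.92 and 0.87). For cetp they were a second AGXT gene (ENSDARG00000052099; 0.94 and 0.96), GC, the vitamin D-binding protein gene (0.91 and 0.94), and the first AGXT gene (0.89 and 0.94). For si:dkey-105h12.2 they were GC (0.87 and 0.84), RBP2, a cellular retinol-binding protein gene (ENSDARG00000093774; 0.90 and 0.83), and serpina1 (0.87 and 0.83). Of these 8 genes, apom, serpina1 and GC were on the liver list. RBP2 entered the intestine list by a synonym that matched another RBP2 gene as well.

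Those 8 genes also had a log2 fold change below 0 at 48.3 µM BPA and above 0 at 2.92 µM TBBPA. They were picked for likeness to the 4 genes, which fixes much of this. With BPA the changes were called for RBP2 at −2.32, GC at −1.98 and both AGXT genes at −1.75 and −1.51. With TBBPA RBP2 alone was called, at 1.41 (limma adjusted p = 0.00796). The others lay between 0.35 and 0.89.

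Of other genes named as carboxylesterases or cholinesterases, 2 were tested. The gene ces2b, a further carboxylesterase, had a mean of 39.7 ± 8.97 in the BPA CC and 23.0 ± 21.2 at 48.3 µM, a log2 fold change of −1.09 (SE 0.52), and 95.2 ± 10.9 in the TBBPA CC and 103 ± 29.9 at 2.92 µM, a change of 0.09 (SE 0.17). It was called with neither chemical. ACHE, the acetylcholinesterase gene, which breaks down a transmitter at synapses, was lower with BPA in all 3 pairs, from 714 ± 15.9 to 480 ± 12.4 (log2 fold change −0.57, SE 0.12, limma adjusted p = 0.00436). That change was under 1.5-fold, so it was not called. With TBBPA the change of ACHE was −0.02 (SE 0.06). One alpha-2-macroglobulin gene, a2ml, of a family of plasma peptidase inhibitors, was tested, and its changes were −0.64 (SE 0.53) with BPA and 0.66 (SE 0.28) with TBBPA, neither being called.

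Among apolipoproteins and genes for particle assembly, 16 were tested. At 48.3 µM BPA 1 was called higher and 2 lower, where 7.07% and 6.93% of all genes were, with a median log2 fold change of −0.72 against −0.02 over all genes tested. The gene apoeb, for apolipoprotein E, rose from 2991 ± 290 to 5685 ± 780 (log2 fold change 0.92, SE 0.14, limma adjusted p = 0.000473). In contrast apoda.1, for the lipocalin apolipoprotein D, fell from 127 ± 40.9 to 49.4 ± 8.77 (−1.32, SE 0.25, adjusted p = 0.00243). Without replicate 1 at 48.3 µM, 10 of the 16 were called lower and 1 higher, beside 5.68% and 5.38% of all genes, with a median of −1.53. Without replicate 2 of every group 0 were called lower and 1 higher, beside 3.25% and 3.53% of all genes. The median was then 0.03, so its sign depended on the libraries used. At 2.92 µM TBBPA 1 of 16 was called, beside 0.859% of all genes. It was apoc1, an apolipoprotein that inhibits lipid transfer and lipases in humans, which rose from 1762 ± 196 to 3497 ± 1066 (0.95, SE 0.18, limma adjusted p = 0.00923). The median was 0.20 against −0.01 over all genes.

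Of the other transfer proteins, lipases and sterol transporters, 17 were tested with BPA, of which 4 were called higher and 3 lower (median −0.26). Over all genes 7.07% were called higher and 6.93% lower. NPC1 and NPC2, which export cholesterol from lysosomes, rose by 0.66 (SE 0.11) and 0.80 (SE 0.11) on the log2 scale. ANGPTL4, an inhibitor of lipoprotein lipase, rose by 0.71 (SE 0.18). LIPG, the endothelial lipase, fell by 0.88 (SE 0.16). PLTP, the phospholipid transfer protein and a relative of cetp, fell by 0.75 (SE 0.22). With TBBPA 0 of 19 were called by limma, edgeR or DESeq2 (6 had an unadjusted p under 0.05 in limma, as did 19.8% of all genes), and the median was 0.07. ABCG1, a sterol exporter, and ANGPTL4 had limma adjusted p-values of 0.00449 and 0.0107 with TBBPA, at changes of −0.42 and 0.53 that were under 1.5-fold.

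Among lipoprotein receptors and their regulators, 3 of 16 were called higher and 3 lower with BPA (median 0.40), beside 7.07% and 6.93% of all genes. Those named by the largest changes were stab2, a scavenger receptor of endothelial cells (1.32, SE 0.31), lrp2b, a megalin gene (0.79, SE 0.25), and amn, a partner of cubilin (0.73, SE 0.24). Both MYLIP genes, for a ubiquitin ligase that marks the LDL receptor for breakdown, fell (−0.97, SE 0.17, and −0.79, SE 0.18). With TBBPA 0 of the 16 were called by limma, edgeR or DESeq2 (3 had an unadjusted p under 0.05 in limma, beside the 19.8% of all genes), and the median was −0.04. Among nuclear receptors and sterol regulators with their targets, 2 of 21 were called lower with BPA, a share near the 6.93% of all genes. Of these pparaa, for a receptor that drives fatty acid oxidation, went from 109 ± 4.27 to 55.6 ± 9.49 (−0.96, SE 0.21). With TBBPA 0 of 25 were called by the same tools (5 had an unadjusted p under 0.05 in limma, a share near the 19.8% of all genes; median −0.12).

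Liver markers were called lower for 4 of 20 genes with BPA, where 6.93% of all genes were. Of those called, ahsg2, a fetuin gene, fell from 69.4 ± 20.2 to 3.47 ± 1.01. The gene fabp10a, also called, fell from 2282 ± 400 to 709 ± 633. The fibrinogen genes fga, FGB and FGG went the other way and were not called by limma. The mean of fga rose from 181 ± 24.4 to 705 ± 708 and that of FGB from 277 ± 34.8 to 891 ± 878. That of FGG rose from 28.8 ± 14.6 to 97.0 ± 118. Of the 20 log2 fold changes, 14 lay below 0 and 6 above. The median was −0.62, and without replicate 1 at 48.3 µM 11 of 20 were called lower, beside 5.68% of all genes, with a median of −1.39. On the recovered reads edgeR called 2 of the 20 lower and 2 higher, beside 6.86% and 8.61% of all genes, with a median of −0.12. With TBBPA 2 of 21 liver markers were called, both higher, beside 0.658% of all genes. They were tfa (1.27, SE 0.31, limma adjusted p = 0.0330) and c9, a complement gene (0.91, SE 0.24, adjusted p = 0.0466), and the median of the list was 0.65. The markers hpxa (−1.79, SE 0.58) and ahsg2 (−0.49, SE 0.28) went the other way and were not called. Without replicate 1 of the TBBPA CC 9 of 21 were called higher, and DESeq2 called 0 (16 had an unadjusted p under 0.05 in limma, beside 19.8% of all genes). Without that library 0.723% of all genes were called higher. The medians of the liver markers thus had the signs of the 4 genes in both series, but without replicate 2 of every group that with BPA was −0.02.

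Intestine markers had a median of −1.18 with BPA, and 6 of 16 were called lower, beside 6.93% of all genes. Among them were RBP2 (ENSDARG00000093774; −2.32, SE 0.70), FABP2 (−1.97, SE 0.45) and FABP6, the ileal bile acid-binding protein gene (−1.72, SE 0.18). A second RBP2 gene (ENSDARG00000070038) was also called lower (−1.52, SE 0.45). Both RBP2 genes were matched by synonym to a single listed name, rbp2a, so 1 of them may not be the marker meant. In all, 15 matched names gave 17 intestine genes. Of the 16, 12 lay below 0 and 4 above. Those above were VIL1 (0.57, SE 0.36), cdx1a (0.48, SE 0.41), TM4SF4 (0.43, SE 0.55) and cdx1b (0.35, SE 0.33), which were not called. With TBBPA the median was −0.20 over 17 genes. The first RBP2 gene was called higher (1.41, SE 0.26), as 0.658% of all genes were, while the second was at −0.24 (SE 0.18) and not called. SLC10A2, the ileal bile acid transporter gene, was called lower (−0.76, SE 0.15), as 0.201% of all genes were. FABP6 was also lower with TBBPA in all 3 pairs (−0.58, SE 0.10, limma adjusted p = 0.00532). That change was just under 1.5-fold, so it was not called. Of 15 exocrine pancreas markers limma called 0 with either chemical (0 with BPA and 7 with TBBPA had an unadjusted p under 0.05, beside 30.9% and 19.8% of all genes), and edgeR called 1 with TBBPA. The medians were 0.19 with BPA and 0.49 with TBBPA, and that with BPA turned to −0.46 without replicate 1 at 48.3 µM and to −0.09 with edgeR.

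**Figure D4:**
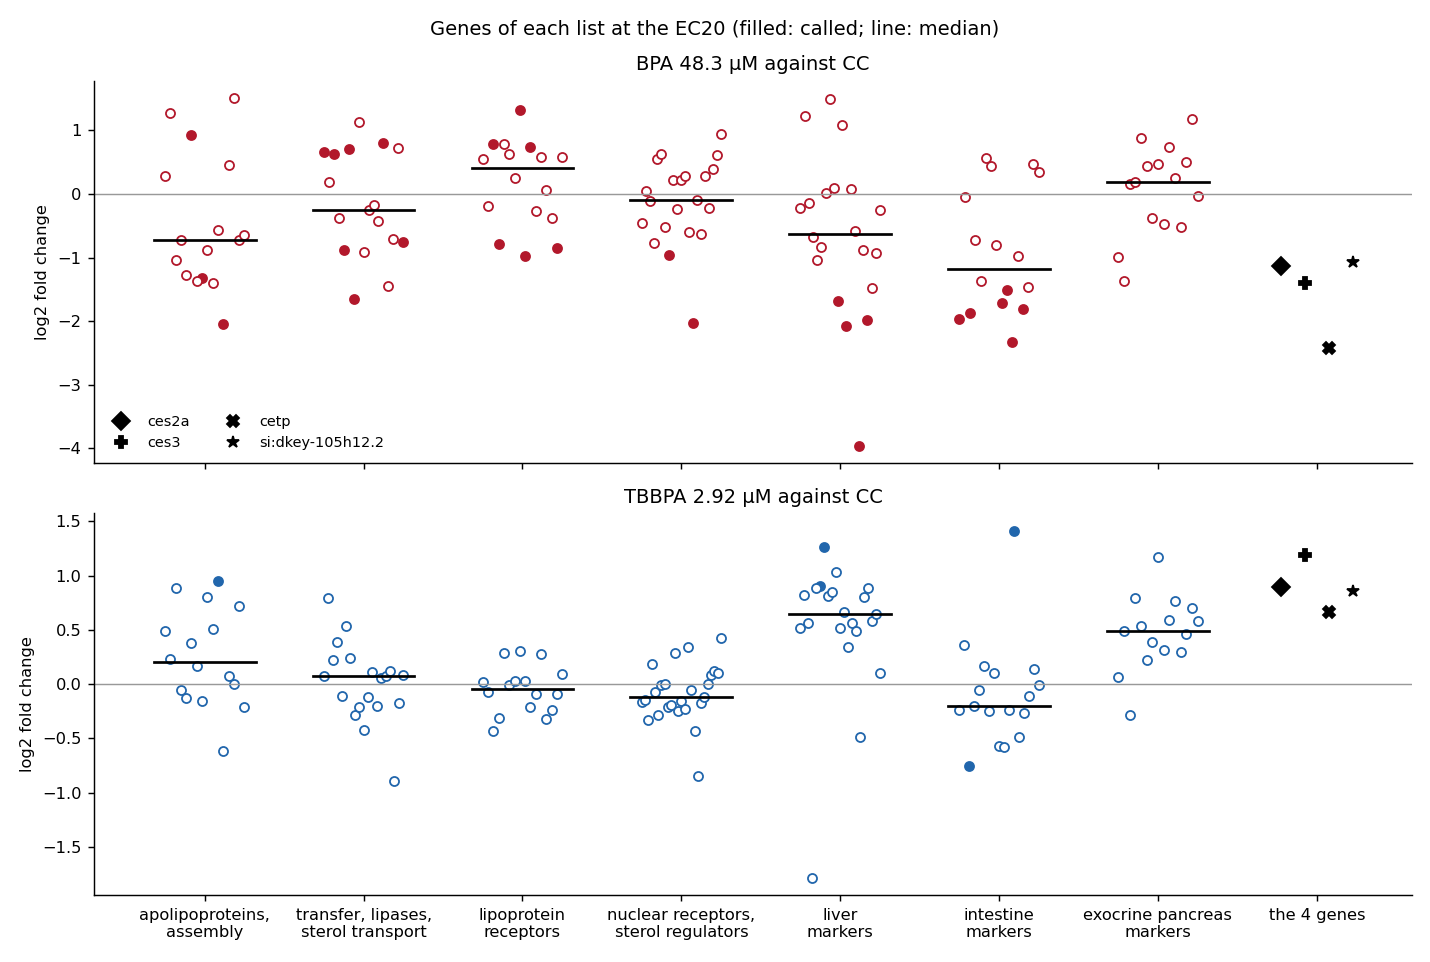
Log2 fold change of every tested gene of each list at 48.3 µM BPA (upper) and 2.92 µM TBBPA (lower), with called genes filled, others open, a line at the median of each list and the 4 genes as black symbols at the right. The liver markers have a median of −0.62 with BPA and 0.65 with TBBPA, and the 4 genes lie between −2.42 and −1.07 and between 0.66 and 1.19.

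The genes ces2a, ces3 and cetp lie on 1 chromosome. In the reference annotation ces2a and ces3 are next to each other, and other protein-coding genes stand between ces3 and cetp, of which 6 were tested. Of the 10 tested neighbours of the 3 genes, 2 were called with BPA, both lower, beside 14% of all genes in either direction and 6.93% lower. They were CPNE2, a copine gene beyond cetp (420 ± 23.0 to 231 ± 10.5, log2 fold change −0.86, SE 0.11), and BBS2, for a subunit of the BBSome (119 ± 20.6 to 77.7 ± 5.63, −0.59, SE 0.16). HERPUD1, the tested neighbour before cetp, was at 0.37 (SE 0.15), and SLC12A3, a sodium chloride cotransporter gene, at 0.91 (SE 0.32), both above 0 with BPA and not called. KIAA0513, the tested neighbour after ces3, was at −0.61 (SE 0.26) with BPA and not called. Of the 10, 6 lay below 0 with BPA and 4 above. The median of the 10 was −0.20 with BPA and −0.02 with TBBPA. With TBBPA 0 of the 10 were called by limma, edgeR or DESeq2 (2 had an unadjusted p under 0.05 in limma, a share near the 19.8% of all genes). Their changes lay between −0.24 and 0.34, and ces2a, ces3 and cetp lay at 0.90, 1.19 and 0.66. These 3 genes were chosen on these contrasts and the neighbours by position, so nothing is read from the difference.

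**Figure D5:**
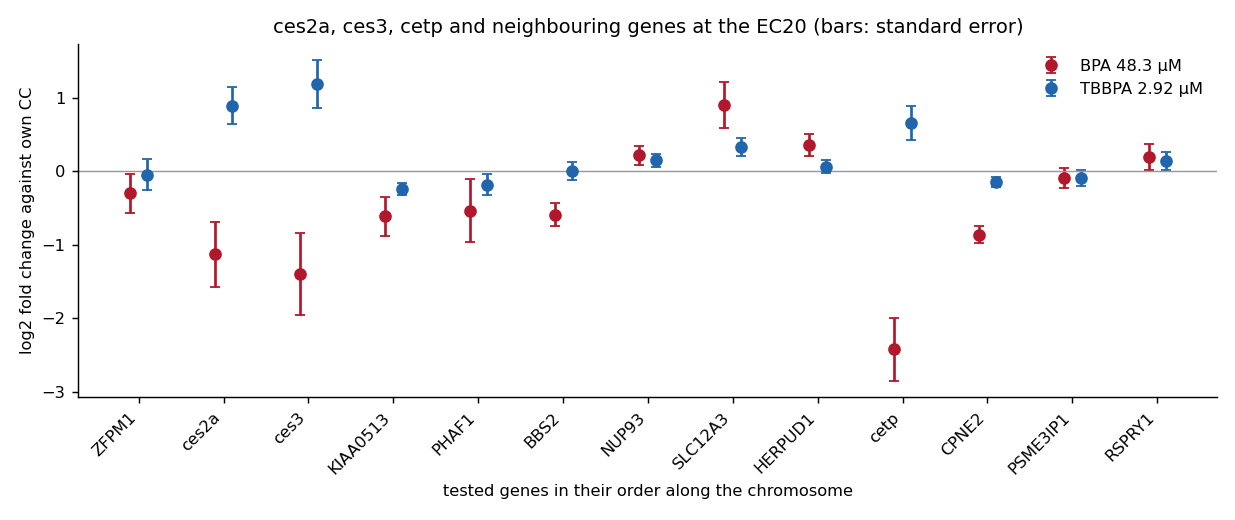
Log2 fold change at 48.3 µM BPA (red) and 2.92 µM TBBPA (blue) for ces2a, ces3, cetp and the 10 tested genes around them, placed in their order along the chromosome and not to distance, with bars for the standard error. The neighbours with TBBPA lie between −0.24 and 0.34, and ces2a, ces3 and cetp, which were chosen on these contrasts, lie above them.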

How the data were processed

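The authors prepared stranded mRNA libraries, used cutadapt for trimming, and obtained gene counts from STAR in quant mode on the GRCz11 genome. The authors deposited 2 tables, 1 per chemical, of a signal that is never negative: gene counts divided by DESeq2 size factors. Whole reads were recovered from the steps of these values (tolerance 0.01; 100% of values whole), and summed for depth. In 2 libraries, 1 per series, the step lies close to 1 and the recovery could not be told from rounding.

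Each chemical was fitted apart by limma 3.58.1 in R 4.3.3 (lmFit, eBayes with trend). Its 18 libraries entered as log2(value + 1), genes averaging under 10 were dropped, and replicate number was a blocking term, following the design of the study. Fold changes are on this scale, which understates low genes. P-values were adjusted by Benjamini-Hochberg over all 17248 (BPA) or 18400 (TBBPA) genes. Alternatives were a pseudocount of 10, no filter, edgeR 4.0.16 and DESeq2 1.42.0 on recovered reads, no block, 6 libraries only, limma's treat, and libraries left out. The fits were tested on simulated data. The methods state that replicates came from separate repeats and clutches, and the 36 pairs of libraries of a group differed by more than sampling noise (chi-square over its degrees of freedom, 3.11 to 31.9).

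The members and lists were chosen with earlier results of these data known. The lists of other carboxylesterase and cholinesterase genes, of alpha-2-macroglobulin genes and of chromosome neighbours were filled by name or position after the tables were seen, and 13 of 15 alpha-2-macroglobulin names had no match. The named genes of a list are at most 3 DEGs in each direction with the largest change among those changed alike in all 3 pairs of equal number; each member was also given the 3 genes most like it. One gene that the rule names is not reported here. ACHE, ces2b, a2ml, HERPUD1, SLC12A3, KIAA0513, ABCG1, ANGPTL4 and FABP6 with TBBPA, and the markers at 0 were named outside that rule, after their values were seen. The same holds for fga, FGB, FGG, VIL1, cdx1a, TM4SF4, cdx1b, the second RBP2 gene, and ahsg2 and hpxa with TBBPA. Names came from a reference table (23843 of 25856 BPA identifiers and 24487 of 26639 TBBPA identifiers had one), which spells some in capitals, and si:dkey-105h12.2 from the supplement. That gene has a different name in the reference. Gene order came from RefSeq (GRCz12tu), so no coordinates are given. Sequences were not analysed here.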

Additional observations from a re-analysis of the deposited data

Results flagged for a closer look

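For 3 of the 4 genes all 3 pairs of equal replicate number went one way with BPA and the opposite way with TBBPA at the EC20. Of the 17157 genes tested with both chemicals, 2.09% were lower in all 3 pairs with BPA and higher in all 3 with TBBPA. The 4 genes were chosen on these contrasts, so nothing is read from their pattern. For ces3 the log2 fold change was −1.40 with BPA and 1.19 with TBBPA. For cetp it was −2.42 and 0.66, and for si:dkey-105h12.2 it was −1.07 and 0.86. The difference between the chemicals was not tested, because the concentrations differ and the tables were normalized separately.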

How the results depend on the processing

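Over 17 alternatives for each chemical no member changed sign at the EC20. With BPA cetp was called in 16 of them and lost the call without replicate 2 of every group. With TBBPA si:dkey-105h12.2 was called in 12 and lost the call under limma's treat at 0.86 and without replicate 3 of every group. Leaving out 1 replicate number, or 1 CC or EC20 library, gave −1.95 to −0.64 for ces2a, −2.23 to −0.54 for ces3, −2.99 to −1.78 for cetp and −1.74 to −0.64 for si:dkey-105h12.2 with BPA. With TBBPA it gave 0.48 to 1.16, 0.85 to 1.54, 0.28 to 0.98 and 0.58 to 1.14. The number of members called, 1 in each main result, then ran from 0 to 4 with BPA and from 0 to 3 with TBBPA.

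Single libraries left out, chosen after the values were seen, moved calls as well. Without replicate 1 at 48.3 µM BPA all 4 were called, at −1.95, −2.23, −2.99 and −1.74, beside 11.1% of all genes. The genes were chosen on these contrasts, so nothing is read from this count or from those that follow. Without CC replicate 1 with TBBPA 3 were called, ces2a at 1.14, cetp at 0.93 and si:dkey-105h12.2, beside 1.125% of all genes. Without exposed replicate 2, 2 were called, ces3 at 1.43 among them, beside 0.973% of all genes. In contrast 0 were called without CC replicate 2, CC replicate 3 or exposed replicate 3, where si:dkey-105h12.2 stood at 0.87, 0.69 and 0.69. The shares of all genes were then 0.359%, 0.359% and 0.337%. Without replicate 3 at 4.83 µM BPA 2 were called, ces2a at −1.13 being added, beside 20.6% of all genes. Without replicate 2 at 0.000292 µM TBBPA 3 were called, ces2a at 0.90 and ces3 at 1.19 being added, beside 1.22% of all genes. The 6 CC and EC20 libraries alone gave 2 calls with BPA (si:dkey-105h12.2 at −1.07 added) and 3 with TBBPA (ces2a at 0.90 and ces3 at 1.19 added). They gave calls for 15.6% of all genes with BPA and 0.848% with TBBPA. With a pseudocount of 10 ces3 was called at 1.15 with TBBPA, and with edgeR at 1.20, for 2 calls each, and treat gave 0. The shares of all genes called with TBBPA were 0.826%, 1.02% and 0% in these 3 settings. The cause was not tested.

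Without the replicate block no member changed its call, and cetp stayed at −2.42 (SE 0.43) with BPA and si:dkey-105h12.2 at 0.86 (SE 0.18) with TBBPA. Over all genes it gave 2307 calls with BPA, against 2414, and 69 with TBBPA, against 158. Libraries of equal number had a median correlation of deviations of 0.12 with BPA and 0.17 with TBBPA, against −0.06 and −0.08 for other pairs, with some pairs of equal number below 0.

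Calls within the lists varied widely with BPA, from 0 to 12 of the apolipoproteins (3 in the main result), 0 to 10 of the transfer proteins and lipases (7), 0 to 9 of the receptors (6), 1 to 11 of the liver markers (4) and 1 to 10 of the intestine markers (6). With TBBPA they ran from 0 to 9 for liver markers (2) 0 to 4 for apolipoproteins (1) and 0 to 3 for intestine markers (2), and edgeR called 1 exocrine pancreas marker against 0. Over all genes the share called ran from 2.10% to 20.6% with BPA and from 0% to 1.22% with TBBPA. The median of the liver markers ran from −1.39 to −0.02 with BPA and from 0.25 to 0.95 with TBBPA. The −0.02 was found without replicate 2 of every group, where 10 of the 20 markers lay above 0 and 10 below. The median over all genes was then −0.01, so the fall of the liver markers with BPA depended on the libraries used. Depth limits cetp most, which had 2 to 14 reads per library at 48.3 µM BPA.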
